A study of Homo sapiens with 10 samples.

Results

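The Notch ligands JAG1, JAG2, DLL1 and DNER, the receptors NOTCH1, NOTCH2 and NOTCH3 and the target genes HES1, HEY1 and HEYL were followed through MDA-MB-231 cells before and after regrowth as tumours. These 10 genes were chosen by name, with earlier results of these data known. Among those results was a higher DNER in the tumours that bear the label resistant, described below. All probe sets of the 10 genes that are annotated to a single gene were taken. That gave 26 of the 41091 single-gene probe sets, or 10 of the 19775 genes on the array. A further probe set was left out because it names NOTCH2 together with the NOTCH2NL copies.

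Notch receptors are single-pass membrane proteins that are switched on by ligands of the JAG and DLL families on neighbouring cells. Ligand binding exposes the receptor to ADAM proteases and then to gamma-secretase, and the freed intracellular domain joins the DNA-binding protein RBPJ to turn on genes such as HES1, HEY1 and HEYL, which encode repressors. In breast cancer the pathway is best known for roles in growth, survival and stem-like cells, and in blood vessels it patterns the endothelium.

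MDA-MB-231 is an established human breast cancer line that lacks oestrogen and progesterone receptors. SM-164 is a Smac mimetic, a compound that antagonises the IAP proteins and so favours cell death. The parental cells were grown in culture, were not exposed to the drug as far as the labels say, and are labelled sensitive to it. The other 4 lines, T2, T3, T6 and T8, were tumour cells taken from xenografts in SCID mice, which lack B and T lymphocytes but keep other host cells. Each mouse had received SM-164 intravenously at 5 mg/kg on 5 days per week for 2 weeks, and the tumour had shrunk and then regrown. T2 and T3 bear the label resistant to SM-164, while T6 and T8 bear the label sensitive. Every tumour thus had both growth in a mouse and drug exposure behind it, and these cannot be told apart. Neither can resistance and the identity of the tumour, with 2 tumours of each kind.

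Each line was measured on 2 Affymetrix arrays from 5 ug of total RNA. Whether both arrays of a line hold RNA of separate cultures or tumour pieces is not stated, and a p-value over arrays may therefore reflect technical spread alone. Over all genes, arrays of 1 line correlated at 0.996 to 0.998 and arrays of different lines at 0.972 to 0.995. Of the defining genes of the line, VIM (line means of log2 14.1 to 14.4), CD44 (12.3 to 12.6), KRT18 (13.3 to 13.6) and EGFR (10.6 to 11.3) were high throughout. PGR lay below log2 5 in all lines, whereas ESR1 (6.56 to 6.71) and GATA3 (7.69 to 8.82) did not. In bulk RNA, fewer cells with a transcript and less transcript per cell cannot be told apart.

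Values are log2 intensities, so a difference of 1 is a doubling on the array, and levels of different probe sets are not compared with each other. A gene was represented by its probe set with the highest mean, and it entered the tests when 2 or more of its 10 values were at least log2 5. This left 14929 genes, and a gene was called at an adjusted p under 0.05 in limma, with p-values adjusted over all of them. Of the 10 members, 9 lay above log2 5 on all 10 arrays. The exception was DLL1, a Delta-type ligand, whose probe sets had line means of 4.11 to 4.28 and 3.62 to 3.92, below log2 5 on every array, so it was not tested.

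The starts of HES1 and HEYL are shown because, of the 7 members with an entry in the promoter table, these target genes carried the letters that RBPJ is known to recognise. Both stretches are the 250 bases before the gene's start in the RefSeq promoter table of GRCh38.p14, read in the direction of the gene, at chr3:194135898-194136147 on the plus strand for HES1 and chr1:39639644-39639893 on the minus strand for HEYL. Capitals mark TGGGAA or its reverse complement TTCCCA.
HES1: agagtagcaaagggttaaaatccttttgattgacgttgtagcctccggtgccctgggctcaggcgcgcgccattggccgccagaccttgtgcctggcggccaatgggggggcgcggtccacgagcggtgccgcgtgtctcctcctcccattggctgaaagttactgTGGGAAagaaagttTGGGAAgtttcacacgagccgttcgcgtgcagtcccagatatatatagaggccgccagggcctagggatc
HEYL: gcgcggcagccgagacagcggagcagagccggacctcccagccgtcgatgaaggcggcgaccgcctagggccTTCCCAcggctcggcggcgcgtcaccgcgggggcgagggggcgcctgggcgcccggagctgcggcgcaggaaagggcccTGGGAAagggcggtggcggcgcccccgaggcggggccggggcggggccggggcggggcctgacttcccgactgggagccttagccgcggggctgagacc
HES1 held TGGGAA with its first base at -84 and at -70, as a pair in the same direction. HEYL held TTCCCA at -178, there as part of the longer form CGTGGGAA on the other strand, and TGGGAA at -99. DLL1, DNER and HEY1 did not match an entry of the table and were not searched. JAG1, JAG2, NOTCH1, NOTCH2 and NOTCH3 had neither motif in the same window. Among 27305 promoters of that length, 21.1% held TGGGAA on either strand at least once, 2.92% held it 2 times or more, and 0.725% held CGTGGGAA. A match of letters is a description of the sequence and not of binding.

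**Figure D1:**
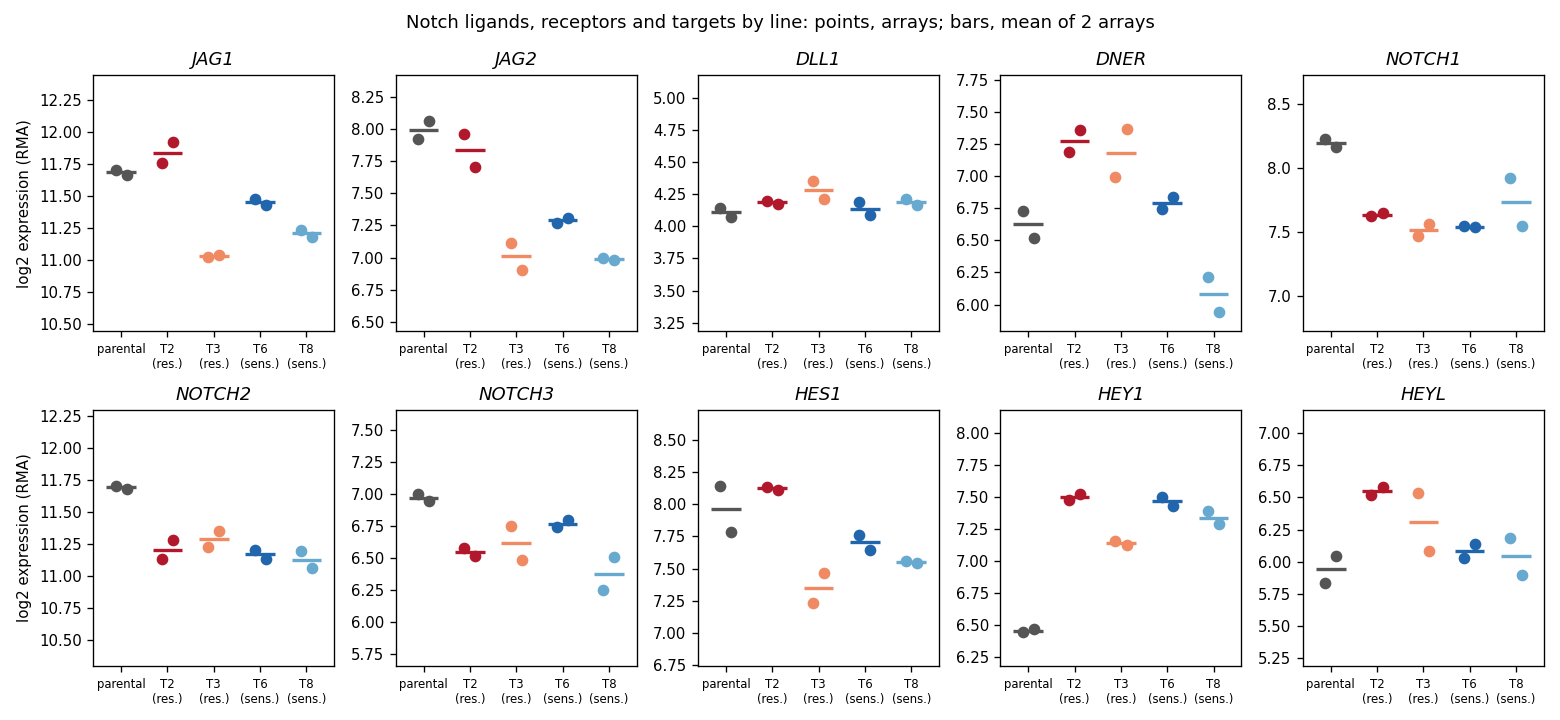
log2 expression (RMA, y axis) of the 10 members in the parental cells, the resistant tumours T2 and T3 and the sensitive tumours T6 and T8 (x axis). Points are arrays, bars are the mean of the 2 arrays of a line, and every panel spans the same number of log2 units. HEY1 is higher and NOTCH1 and NOTCH2 are lower on every tumour array than on the parental arrays, and DNER is lowest in T8.

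JAG1, a Jagged-type ligand at chr20:10637684-10673999, read log2 11.70 and 11.66 on the parental arrays, 11.76 and 11.92 in T2, 11.03 and 11.04 in T3, 11.47 and 11.43 in T6, and 11.23 and 11.18 in T8. Both T2 arrays lay slightly above the parental arrays, and the other tumours were lower, T3 furthest. Against parental cells, JAG1 fell by 0.65 ± 0.06 (SE) in T3, by 0.48 in T8 and by 0.23 in T6. The value in T2 was 0.15 ± 0.06 above parental cells (adjusted p = 0.0801). From the highest line mean to the lowest the order was T2, parental, T6, T8 and T3. The neighbouring pairs T2 and parental, and T8 and T3 (adjusted p = 0.0731), did not pass the test, whereas parental to T6 and T6 to T8 (0.25) did. Both of these narrow steps rested on single arrays. The fall in T6 was lost without parental replicate 1 (adjusted p = 0.0543) or T6 replicate 2 (0.0889), and with arrays centred on their medians (0.053). The step from T6 to T8 was lost without T6 replicate 1 (0.142), T6 replicate 2 (0.0737), T8 replicate 1 (0.0684) or T8 replicate 2 (0.139). Without T2 replicate 1, T2 passed above parental cells (0.23, adjusted p = 0.0136). The probe set that stands for JAG1 is of a kind that Affymetrix marks as able to bind other transcripts.

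JAG2, the second Jagged-type ligand, at chr14:105140995-105168776, gave 7.92 and 8.07 in parental cells, 7.96 and 7.71 in T2, 7.12 and 6.90 in T3, 7.27 and 7.31 in T6, and 7.0 and 6.98 in T8. The arrays of T3, T6 and T8 all lay below those of parental cells and T2, with no overlap. JAG2 fell by 1.0 ± 0.11 in T8, by 0.99 in T3 and by 0.70 in T6, while T2 differed from parental cells by -0.16 (adjusted p = 0.324). The only neighbouring step in the order of the lines that passed was the one from T2 down to T6, of 0.54 (adjusted p = 0.00757). That step was lost without T2 replicate 1 (adjusted p = 0.0813), T6 replicate 1 (0.0778) or T6 replicate 2 (0.0643), while the falls against parental cells in T3, T6 and T8 passed with any 1 array left out.

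DNER, a neuronal transmembrane protein with EGF repeats described as a Notch ligand, lies at chr2:229357629-229714555 and had a single probe set. It read 6.73 and 6.52 in parental cells, 7.19 and 7.36 in T2, 6.99 and 7.37 in T3, 6.75 and 6.84 in T6, and 6.22 and 5.94 in T8. Both resistant tumours were above parental cells, T8 was below them, and the T6 arrays lay just above the higher parental array. The rise was 0.65 ± 0.14 in T2 (adjusted p = 0.00228) and 0.56 in T3 (adjusted p = 0.00618), and the fall in T8 was -0.55 (adjusted p = 0.00661). Without T3 replicate 2 the difference in T3 was 0.37 (adjusted p = 0.106), without parental replicate 2 it was 0.45 (0.0556), and without T8 replicate 2 the difference in T8 was -0.41 (adjusted p = 0.0755). In T6 the difference was 0.17 (adjusted p = 0.388). With a range of 1.2 between its highest and lowest line, DNER varied more across the lines than any other tested member.

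All 3 receptors were lower in the mean of the tumours than in parental cells. NOTCH1, at chr9:136494433-136546048, read 8.22 and 8.16 in parental cells, 7.62 and 7.65 in T2, 7.47 and 7.56 in T3, 7.55 and 7.54 in T6, and 7.92 and 7.55 in T8. Every tumour array was below both parental arrays, and the arrays of T8 were the furthest apart. NOTCH1 fell in each tumour, by 0.46 ± 0.11 (T8) to 0.67 (T3). Without T8 replicate 2 the difference in T8 was -0.27 (adjusted p = 0.0874).

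NOTCH2, at chr1:119911553-120069662, read 11.71 and 11.68 in parental cells and 11.07 to 11.35 on the 8 tumour arrays. It fell in each tumour, by 0.40 ± 0.07 in T3, 0.49 in T2, 0.52 in T6 and 0.56 in T8, and the tumours did not differ from each other in any pair. The probe set that stands for NOTCH2 is of the same kind as that of JAG1, and NOTCH2 has near-identical NOTCH2NL copies, so its level is uncertain to that extent.

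NOTCH3, at chr19:15159038-15200995, read 6.99 and 6.94 in parental cells, 6.58 and 6.51 in T2, 6.75 and 6.49 in T3, 6.74 and 6.79 in T6, and 6.25 and 6.51 in T8. Here too no tumour array reached a parental array, but the gap was narrow for T6. NOTCH3 fell by 0.42 ± 0.12 in T2, by 0.35 in T3 and by 0.59 in T8, and the difference in T6 was -0.20 (adjusted p = 0.225). The call in T2 was lost without parental replicate 1 (adjusted p = 0.0648) or T2 replicate 2 (0.0793), and the call in T3 without either parental array (0.117 and 0.083), T3 replicate 2 (0.304) or either T6 array (0.0554 and 0.0555). Averaging the probe sets gave -0.20 in T2 (adjusted p = 0.211) and -0.15 in T3 (adjusted p = 0.324), so neither was then called. No neighbouring step in its order of lines passed the test.

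HEY1, a target that encodes a basic helix-loop-helix repressor, lies on chromosome 8. It read 6.45 and 6.47 in parental cells, 7.48 and 7.52 in T2, 7.16 and 7.13 in T3, 7.50 and 7.43 in T6, and 7.39 and 7.29 in T8. The lowest tumour array was well above the highest parental array. HEY1 rose by 1.04 ± 0.10 in T2 (adjusted p = 9.12e-07), 1.01 in T6, 0.88 in T8 and 0.68 in T3 (adjusted p = 5.68e-05). The step from T3 down to parental cells was the only neighbouring step that passed, and over wider steps T3 was 0.36 below T2 (adjusted p = 0.00974) and 0.32 below T6 (adjusted p = 0.0233). The first of these was lost without T3 replicate 2 (adjusted p = 0.0533). The second was lost without T3 replicate 1 (0.0649), T3 replicate 2 (0.095), T6 replicate 1 (0.173) or T6 replicate 2 (0.0824), and when quantile normalisation was repeated (0.0534). A HEY1 probe set without Affymetrix's mark for sharing between transcripts gave 0.30 for T2 minus T3 (adjusted p = 0.0899) and -0.20 for T3 minus T6 (adjusted p = 0.295).

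HES1, the classic Notch target, at chr3:194136148-194138732, followed another course. It read 8.14 and 7.79 in parental cells, 8.14 and 8.11 in T2, 7.23 and 7.47 in T3, 7.76 and 7.65 in T6, and 7.56 and 7.55 in T8. T2 overlapped parental cells, and the arrays of the other tumours lay below both of these lines. HES1 fell by 0.62 ± 0.12 in T3 (adjusted p = 0.000819) and by 0.41 in T8 (adjusted p = 0.0119), and the values in T2 and T6 were 0.16 and -0.26 (adjusted p = 0.354 and 0.106). The parental arrays were 0.35 apart. Without parental replicate 1 the difference in T8 was -0.24 (adjusted p = 0.148), and without T8 replicate 1 or T8 replicate 2 its adjusted p was 0.0536 or 0.0529. Without parental replicate 2, the difference in T6 was -0.44 and passed (adjusted p = 0.018). The HES1 values, like those of HEY1, are those of a probe set that Affymetrix marks as shared by several transcripts. The probe set without that mark gave -0.06 in T3 (adjusted p = 0.819) and -0.20 in T8 (adjusted p = 0.346).

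HEYL, a relative of HEY1 at chr1:39623435-39639643, read 5.84 and 6.05 in parental cells, 6.52 and 6.58 in T2, 6.53 and 6.09 in T3, 6.03 and 6.14 in T6, and 6.19 and 5.90 in T8. Its level was close to the filter and its arrays overlapped between most lines. HEYL rose in T2, by 0.61 ± 0.15 (adjusted p = 0.00626). The second HEYL probe set gave 0.23 there (adjusted p = 0.245), and both bear the mark for sharing between transcripts. In T3 the difference was 0.37 (adjusted p = 0.0737), and without T3 replicate 2 it was 0.59 and passed (adjusted p = 0.0153).

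**Figure D2:**
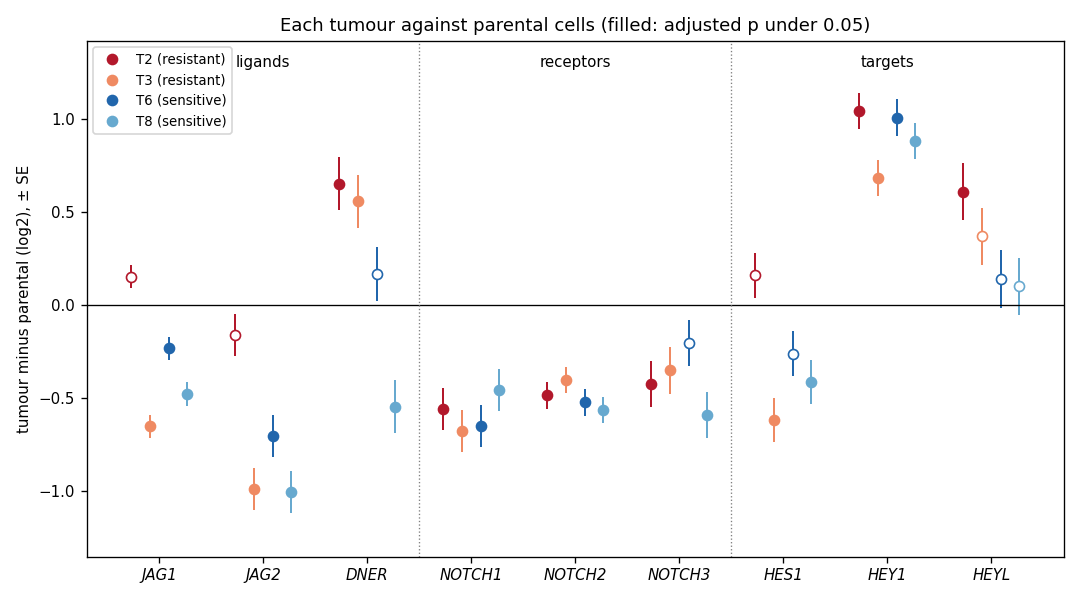
Difference of each tumour from parental cells (y axis, log2) for the 9 tested members, grouped as ligands, receptors and targets (x axis). Points are single tumours, coloured by response label, bars are ± SE of the limma fit over arrays, and filled points have an adjusted p under 0.05. HEY1 is above 0 and NOTCH1 and NOTCH2 are below 0 with filled points in all 4 tumours, while DNER takes opposite signs in T2 and T8.

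Counted over the tumours, 27 of 36 values of a tested member against parental cells passed the test, 7 of them higher and 20 lower. These 4 comparisons share the parental arrays. Of 9 members, 6 were called in T2, where 33.0% of all genes were, 8 in T3 (37.9% of all genes), 5 in T6 (34.5%) and 8 in T8 (43.8%). HEY1 was called above parental cells in all 4 tumours, as were 8.87% of genes. NOTCH1 and NOTCH2 were called below them in all 4, as were 5.41% of genes.

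For the mean of the 4 tumours, 7 of 9 members passed, against 42.3% of all genes. HEY1 was the member that rose, by 0.90 ± 0.08 (adjusted p = 2.67e-07), against 25.5% of genes called higher. The 6 that fell, against 16.8% of genes called lower, were JAG2 (-0.71 ± 0.09), NOTCH1 (-0.58 ± 0.09), NOTCH2 (-0.49 ± 0.06), NOTCH3 (-0.39 ± 0.10), JAG1 (-0.30 ± 0.05) and HES1 (-0.28 ± 0.09), with adjusted p from 5.43e-06 for NOTCH2 to 0.0257 for HES1. HEYL (0.30 ± 0.12, adjusted p = 0.0568) and DNER (0.21 ± 0.11, adjusted p = 0.155) were not called. The median difference was -0.30 over the 9 members and 0.0015 over all genes. Every tumour array was above both parental arrays for HEY1, as for 15.7% of genes, and below both for NOTCH1, NOTCH2 and NOTCH3, as for 12.4% of genes.

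The call of HES1 rested on single arrays: without parental replicate 1 its difference was -0.11 (adjusted p = 0.481), and without T6 replicate 2 its adjusted p was 0.0522. HEYL passed without T3 replicate 2 (adjusted p = 0.0166) or T8 replicate 2 (0.0367). With the line instead of the array as the unit, parental cells are a lone sample assumed to vary like the tumours, and none of the 9 members was called (1.31% of genes were). The adjusted p was then 0.0763 for HEY1, 0.117 for NOTCH2 and 0.134 for NOTCH1; at an unadjusted p under 0.05 that fit held 2485 genes and 3 members.

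Endothelial marker genes stood beside HEY1, which blood vessel cells also express. Of the 12 listed markers, 10 were tested and 6 were called between tumours and parental cells, against 42.3% of all genes, with ESAM (1.29), ROBO4 (0.82), TIE1 (0.49), CDH5 (0.49) and KDR (0.41) higher and EGFL7 (-0.66) lower. In sign, 5 of the 10 were above and 5 below parental cells. PECAM1 (-0.18), VWF (-0.16), CLDN5 (-0.08) and TEK (-0.07) were lower without a call. The mean over the list was 5.95 and 5.96 on the parental arrays and 5.96 to 6.34 on the tumour arrays, with 3 to 5 of the 12 below log2 5 in a line. ESAM, an endothelial adhesion molecule, had line means of 9.58 in parental cells, 11.1 in T2, 10.6 in T3, 10.9 in T6 and 10.9 in T8. It was highest in T2 and lowest of the tumours in T3, as HEY1 was, whereas ROBO4, TIE1, CDH5 and KDR were highest in T8. ROBO4 (9.21 in parental cells and 9.99 in T2) and KDR (5.15 and 5.59) were also above parental cells in T2, whereas CDH5, the vascular cadherin, was at 3.59 and 3.55 and reached 5.16 in T8. In parental cells the means of ESAM, ROBO4 and KDR lay above log2 5, and those of CDH5 and TIE1 (4.46) lay below it. Of the tested fibroblast and pericyte markers 2 of 6 and of the macrophage markers 3 of 5 were called, all of them lower in the tumours, where 16.8% of all genes were. The macrophage marker LAPTM5 read 10.7 in parental cells, and 2 of the 7 measured macrophage markers lay below log2 5 there. All these markers are human genes, whereas host cells of the xenografts were those of a mouse. How mouse RNA reads on these probe sets was not tested, nor was the part of the markers in the changes of the Notch genes.

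Resistant and sensitive tumours were compared to see whether Notch genes followed the response label. DNER's higher level in the resistant tumours was known before the members were chosen, so its values here describe it and are no independent test. DNER was highest in both resistant tumours and had no overlap, from 6.99 to 7.37 on the resistant arrays against 5.94 to 6.84 on the sensitive arrays, as 3.97% of genes had in that direction. Its difference of 0.79 ± 0.10 passed over arrays (adjusted p = 0.000131), and was 0.79 ± 0.25 with the tumour as the replicate (adjusted p = 0.894). The gap between the sensitive tumours T6 and T8 was 0.71 ± 0.14 (adjusted p = 0.00345), close to the difference between the classes, and missed the threshold without T8 replicate 2 (0.57, adjusted p = 0.0564). DNER's neighbouring step from T3 down to T6 was 0.39 (adjusted p = 0.06).

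Over arrays, 3 of 9 members were called and all 3 were higher in the resistant tumours, against 19.0% of genes called either way, 4.76% higher and 14.2% lower. DNER, whose direction was already known, is among these 3, so the count is not independent of the choice of members. The others were HEYL (0.37 ± 0.11, adjusted p = 0.0297) and JAG2 (0.28 ± 0.08, adjusted p = 0.0247). JAG2 was high in T2 alone, and T3 was within 0.02 of T8. Leaving out T2 replicate 1 or any 1 array of the T6 and T8 tumours or T3 replicate 1 gave JAG2 an adjusted p of 0.0638 to 0.105. HEYL was lost without T2 replicate 1 (0.0539), T2 replicate 2 (0.0529), T3 replicate 1 (0.141), T6 replicate 1 (0.108), T6 replicate 2 (0.0701) or T8 replicate 2 (0.111). JAG1 (0.11, adjusted p = 0.109) passed without T2 replicate 1 (0.15, adjusted p = 0.0345). The receptors, HES1 and HEY1 had differences of -0.08 to 0.11 and were not called; NOTCH2 passed when quantile normalisation was repeated (0.14, adjusted p = 0.0163), as did JAG1 (0.16, adjusted p = 0.00396).

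With the tumour as the replicate, which is the unit the response label belongs to, none of the 9 members and none of the 14929 genes was called in limma. At an unadjusted p under 0.05 there were 661 genes, with 2 of the members among them, and the smallest adjusted p was 0.894. With the line as a random block no member and 4 genes, 0.0268% of all, were called, and 904 genes and 1 member had an unadjusted p under 0.05. Among the endothelial markers, PECAM1 and VWF were higher and CDH5 (-1.27), ROBO4 and TIE1 lower in the resistant tumours over arrays, 5 of 10 tested, where 19.0% of all genes were called. Of the fibroblast and pericyte markers RGS5 (0.39) and ACTA2 (0.38) were higher, 2 of 6 tested. Of the macrophage markers AIF1 (0.38) was higher and CD14 (-0.37) and LAPTM5 (-0.75) were lower, 3 of 5 tested. Their part in the differences of the Notch genes was not tested.

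By the probe sets that stand for the genes, the tumours differed among themselves in ligands and targets. By an F-test over the 4 tumours, 6 of 9 members were called, against 41.7% of all genes: the 3 ligands tested and the 3 targets, and none of the receptors. Adjusted p-values were 8.95e-07 for JAG1, 3.26e-05 for DNER, 7.77e-05 for JAG2, 0.000679 for HES1, 0.0259 for HEY1 and 0.0444 for HEYL. For NOTCH1, NOTCH2 and NOTCH3 they were 0.339, 0.261 and 0.0941, and NOTCH2 passed when quantile normalisation was repeated (0.014). HEY1 was lost without T2 replicate 2 (adjusted p = 0.0505), T3 replicate 1 (0.0813), T3 replicate 2 (0.109), T6 replicate 1 (0.0716) or T6 replicate 2 (0.0544). HEYL was lost without T2 replicate 1 (0.103), T2 replicate 2 (0.139), T6 replicate 1 (0.101), T6 replicate 2 (0.075) or T8 replicate 2 (0.103). Its second probe set had a range of 0.09 (adjusted p = 0.939), and averaging its probe sets gave 0.26 (adjusted p = 0.239), so neither was called. With only probe sets that carry no mark of lower specificity, HES1 (range 0.26, adjusted p = 0.571) and HEY1 (0.30, adjusted p = 0.248) were not called. The range of tumour means was 0.80 for JAG1, 0.84 for JAG2 and 1.2 for DNER, and 0.22, 0.16 and 0.39 for the receptors in the same order of names. The median range was 0.51 over the 9 members and 0.30 over all genes.

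Both tumours labelled resistant differed from each other in several members. T2 was higher than T3 for JAG1 (0.80 ± 0.06), JAG2 (0.83 ± 0.11), HES1 (0.78 ± 0.12) and HEY1 (0.36 ± 0.10), so 4 of 9 members were called in that direction, against 13.9% of genes. For HES1 the probe set without the shared mark gave 0.12 (adjusted p = 0.681). T2 was above T8 for 5 members, DNER, HES1, HEYL, JAG1 and JAG2, where 9.66% of genes were, and above T6 for 4, DNER, HES1, JAG1 and JAG2, where 3.08% were. In the latter pair DNER (0.48, adjusted p = 0.0465) and HES1 (0.42, adjusted p = 0.0402) were lost without any 1 array of T2 or T6, at adjusted p of 0.0728 to 0.267, and HES1 also without T8 replicate 1 (0.057) or T8 replicate 2 (0.0574). For that pair JAG1 averaged over its probe sets gave 0.22 (adjusted p = 0.0913). The HES1 probe set without the shared mark gave 0.19 (adjusted p = 0.524). T3 was above T8 for DNER alone (1.10), as were 4.66% of genes, and below T6 for HES1, HEY1 and JAG1, as were 13.7%. HES1 there (-0.36, adjusted p = 0.0413) was lost without T3 replicate 1 (0.286), either T6 array (0.248 and 0.0926) or either T8 array (0.0547 and 0.0549). T6 was above T8 for DNER, JAG1 and NOTCH3, as were 4.66% of genes, and NOTCH3 (0.39, adjusted p = 0.0468) was lost without T6 replicate 1 (0.168), T6 replicate 2 (0.236) or T8 replicate 1 (0.357). HEYL in T2 against T8 (0.51, adjusted p = 0.0204) was lost without T2 replicate 1 (0.0581), T2 replicate 2 (0.0703) or T8 replicate 2 (0.171). The second HEYL probe set gave 0.0038 for that pair (adjusted p = 0.988). In all, 20 of the 54 differences between tumours were called. Over all single-gene probe sets above the filter, the share called either way ran from 7.98% (T2 minus T6) to 27.6% (T2 minus T8) in the 6 pairs. DNER, whose direction between the responses was already known, is among the members counted.

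JAG1, JAG2 and HES1 shared a course, which was picked out after their values were seen. In each of these 3 genes T3 and T8 were called below both parental cells and T2, as were 292 of 14929 genes (1.96%). The HES1 probe set without the shared mark did not show this course, with T2 minus T8 at 0.26 (adjusted p = 0.266), T2 minus T3 at 0.12 (adjusted p = 0.681) and no call against parental cells, and JAG1 averaged over its probe sets missed the threshold in T8 (-0.20, adjusted p = 0.0522). T6 was also called below both for JAG1 (-0.23 against parental cells, T2 minus T6 0.38) and for JAG2 (-0.70 and 0.54). For HES1, T6 was called below T2 (0.42) but not below parental cells (-0.26, adjusted p = 0.106). Some of these T6 calls were lost without single arrays, as given for the pairs and single genes above. T3, labelled resistant, thus lay here with tumours labelled sensitive and not with T2, which is also labelled resistant.

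**Figure D3:**
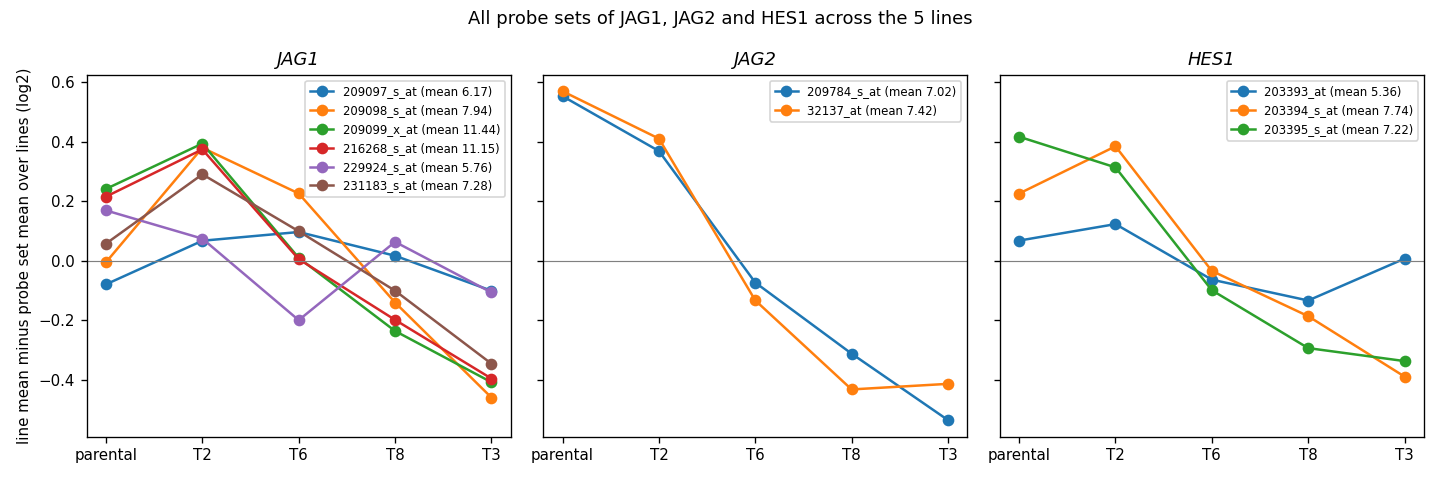
Line means of every probe set of JAG1 (6), JAG2 (2) and HES1 (3), drawn as log2 difference (y axis) from that probe set's own mean over the 5 lines (x axis, placed in the order parental, T2, T6, T8, T3); lines join the points of a probe set and the legend gives its mean level. Both JAG2 probe sets and all 6 JAG1 probe sets are lower in T3 than in T2, 4 of the JAG1 probe sets with a called difference, and the probe sets with the flattest lines are dim ones.

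The probe sets of a gene did not always give the same answer. A fit over all 27826 single-gene probe sets above the filter held 24 of the members' 26, and 13 of these were called between tumours and parental cells, 2 higher and 11 lower, against 38.9% of probe sets. For HEY1 both probe sets rose, by 0.90 and 0.81, and both did so in each tumour. For JAG2 both fell, by 0.71 and 0.69, and for NOTCH2 3 of 4 fell, the fourth giving -0.22 (adjusted p = 0.066).

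JAG1 was less uniform. Of its 6 probe sets, 2 fell, by 0.30 and 0.27, and the remaining 4 gave 0.10, 0.01, -0.07 and -0.21 and were not called. One of those 4 was called above parental cells in T2 (0.39, adjusted p = 0.0334). The mean over the probe sets was -0.12 (adjusted p = 0.115). Averaged in that way, JAG1 also lost its call in T6 (-0.06, adjusted p = 0.563) and T8 (-0.20, adjusted p = 0.0522). The difference between T2 and T3 was called in 4 of the 6 at 0.84, 0.80, 0.77 and 0.64, and the fall in T3 against parental cells was called in the same number. For HES1, one further probe set fell by 0.52 (adjusted p = 0.000172) and the one without the shared mark gave -0.08 (adjusted p = 0.637). The second probe sets of NOTCH1 (-0.21, adjusted p = 0.183) and NOTCH3 (-0.08, adjusted p = 0.631) were not called, and averaging the probe sets gave NOTCH3 -0.23 (adjusted p = 0.0502). The second probe sets of JAG2 (0.11, adjusted p = 0.332) and HEYL (0.05, adjusted p = 0.768) were also not called between resistant and sensitive tumours.

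Other genes of the pathway were taken from lists of 63 genes, of which 59 were measured and 55 tested. Of the 55, 18 were called between tumours and parental cells, 9 higher and 9 lower, with a median of -0.0016. Of all genes 42.3% were called, 25.5% higher and 16.8% lower, so the pathway list as a whole was not called more often than the background, and the counts by role below are to be read against the same shares. The sheddases that make the first activating cut moved in opposite directions. ADAM10 fell by 0.55 ± 0.06 (adjusted p = 6.75e-06) and ADAM17 rose by 0.64 ± 0.06 (adjusted p = 1.66e-06), each called in the same direction in all 4 tumours. The parental arrays of ADAM10 read 11.37 and 11.24 and its tumour arrays 10.55 to 10.84. ADAM17 read 8.59 and 8.50 against 9.02 to 9.39, and neither gene's groups overlapped. Of the gamma-secretase subunits, APH1A and NCSTN fell by 0.23 each, and their means over probe sets were not called (-0.10, adjusted p = 0.169, and -0.13, adjusted p = 0.201).

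Of the receptor-modifying enzymes and ligand ubiquitin ligases, 1 of 9 was called. That was POGLUT1, an O-glucosyltransferase of the receptor's EGF repeats, which rose by 0.38 ± 0.07 and was called in each tumour. In the nuclear complex 5 of 9 were called. KAT2B, an acetyltransferase (0.41), and CCNC, the cyclin of the Mediator kinase module (0.37), rose, while MAML2, a Mastermind coactivator (-0.38), and RBPJ itself (-0.23) fell. For CCNC the mean over probe sets was -0.023 (adjusted p = 0.786), so its direction depends on the probe set, and that of MAML2 was -0.17 (adjusted p = 0.105). Among the repressors 3 of 7 were called, of which HDAC1 rose by 0.41 and TLE1, a Groucho-type corepressor, fell by 0.51. Among turnover factors 4 of 8 were called, the Deltex ligases DTX3L (-0.68) and DTX2 (-0.34) lower and DTX4 (0.37) higher. Without parental replicate 1, DTX4 was at 0.17 (adjusted p = 0.37). Of 8 other targets, 1 was called, the cell cycle inhibitor CDKN1A (-0.30). Of the further ligands and NOTCH4, 6 were tested in limma with a median of 0.03, and none was called or had an unadjusted p under 0.05.

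Between resistant and sensitive tumours, 7 of the 55 were called over arrays, 2 higher and 5 lower, against 19.0% of all genes (4.76% higher and 14.2% lower), so the list was not called more often than the background. HDAC2 (0.17) and HDAC1 (0.15) were higher in the resistant tumours. Lower were NRARP, a feedback inhibitor that Notch itself induces (-0.28), HES6, a relative of HES1 (-0.23), POFUT1, the O-fucosyltransferase of the receptors (-0.23), and DTX2 (-0.20). Each of these 6 calls was lost without at least 4 of the single tumour arrays, among them T6 replicate 1 for all 6 (adjusted p of 0.0563 to 0.159). With the tumour as the replicate none of the 55 was called in limma, and none had an unadjusted p under 0.05. By the F-test 23 of the 55 differed among the tumours, as did 41.7% of all genes, with a median range of 0.26 against 0.30 over all genes.

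**Figure D4:**
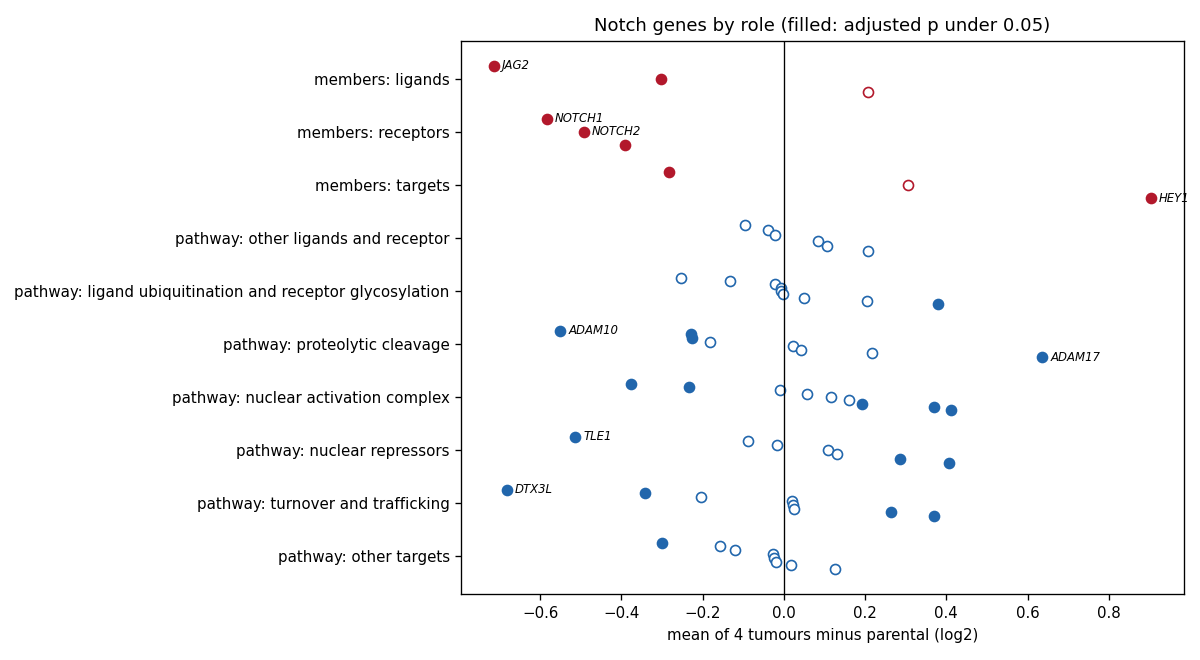
Mean of the 4 tumours minus parental cells (x axis, log2) for the 9 tested members (red) and the 55 other tested pathway genes (blue), 1 row per role (y axis; points are offset vertically for legibility). Filled points have an adjusted p under 0.05. The receptors NOTCH1, NOTCH2 and NOTCH3 all lie to the left of 0, HEY1 lies furthest right, and ADAM10 and ADAM17 lie on opposite sides.

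The genes whose course over the 5 lines was most like that of the 3 most variable members were found by the root mean square (rms) difference of line means, after each gene's own mean was subtracted. Likeness was taken over 5 line means and is a description. For HEY1, with a range of 1.04, they were FABP5, a fatty acid binding protein (rms 0.031), RASSF8 (0.037) and ANKRD1 (0.057). FABP5 had line means of 10.8 in parental cells, 11.8 in T2, 11.5 in T3, 11.8 in T6 and 11.7 in T8. For JAG2, with a range of 1.0, they were GLI2, a transcription factor of the Hedgehog pathway (0.055), SLC12A7 and CYSRT1 (0.11 each). For DNER they were further off: ME1, the cytosolic malic enzyme (0.15), FPGT (0.22) and DPYSL3 (0.23).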

How the data were processed

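Total RNA of 5 lines was measured on 10 arrays, 2 per line. The deposited values are log2 intensities per probe set; affy, RMA (background correction, quantile normalisation and summary over probes) and limma are named per the submitters' processing notes, and their versions and settings are not given in the sources used here. No array has a read depth, so the number of arrays limits the precision; array medians ran from 5.43 to 5.57.

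Of 54675 probe sets, 62 controls were left out, 41091 had 1 gene symbol, 1801 several and 11721 none, by the platform annotation. Symbols of 41037 were updated by Entrez number against RefSeq GRCh38.p14, which also gave gene positions and promoter sequences. The brightest probe set on average stood for each of 19775 genes.

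Here limma 3.58.1 in R 4.3.3 (lmFit, eBayes with a trend) fitted 1 coefficient per line over 10 arrays (5 residual and 9.39 prior degrees of freedom). Resistant minus sensitive was also fitted on line means (2 residual, 2.73 prior), and so were tumours minus parental cells (3 and 3.57). P-values were adjusted by Benjamini-Hochberg. The SE is that of the moderated fit. The code was tested on simulated data.

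The members and all gene lists were chosen with earlier results of these data known, among them the higher DNER in the resistant tumours. All members are named whatever they showed. Of other pathway genes, called genes with the largest differences are named, up to 6 per direction against parental cells and 4 between responses, and for the 3 widest-ranging members the 3 most similar genes. Other genes (APH1A, NCSTN, RBPJ) were named after their values were seen. Alternatives changed the scaling, filter, choice of probe set, prior, unit of replication and arrays used.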

Additional observations from a re-analysis of the deposited data

Results flagged for a closer look

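DNER differed between tumours in the direction of its change from parental cells. It was called above them in T2 and T3 and below them in T8. In limma over arrays, T2 minus T8 was 1.197 ± 0.14 (adjusted p = 1.87e-05) and T3 minus T8 was 1.102 ± 0.14 (adjusted p = 0.000108). Both remained called under all 19 alternatives run for them, with values of 1.06 to 1.33 for T2 minus T8 and 0.91 to 1.29 for T3 minus T8. Those that changed the filter or the choice of probe set left both differences unchanged by construction, and none took the tumour as the unit. Both are shown by a single probe set. Each sets a resistant against a sensitive tumour, and DNER's higher level in the resistant tumours was known before the members were chosen. A called difference was also a condition for the flag, so these values describe DNER and are no independent test.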

How the results depend on the processing

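Without probe sets that Affymetrix marks as less specific, 5 members could be tested, and members called became 3 of 5 for the tumours against parental cells (7 of 9 otherwise), 14 values over the single tumours (27), 2 by the F-test (6) and 6 between pairs of tumours (20). Of all 11658 genes left there, 4556 were called against parental cells and 4350 by the F-test. JAG1, NOTCH2, NOTCH3 and HEYL dropped out because they have only marked probe sets. With line means none, 0, passed against parental cells. Between responses, over arrays, repeated quantile normalisation called 5 members (3 otherwise), where 2969 of 14890 genes were called, and the line as a random block 0. Leaving out 1 array at a time gave 6 to 8 members against parental cells, 1 to 3 between responses (1 without T3 replicate 1, T6 replicate 1, T6 replicate 2 or T8 replicate 2), 23 to 28 over single tumours, 4 to 6 by the F-test and 13 to 21 between pairs (13 without T6 replicate 1 or 2). A replicate block gave 7, 2, 26, 5 and 16. For single tumours and pairs of tumours no share of all genes was taken under these alternatives, so those counts describe the members alone. Deviations of arrays with the same number correlated at -0.39 to 0.50 (median -0.14, 10 pairs). The numbers thus showed no single pairing over all lines, although the deviations of some lines went together. Of the signs, NOTCH1 between responses turned to 0.019 under repeated quantile normalisation and ran from -0.16 to 0.031 with arrays left out. NOTCH3 turned to -0.0058 with arrays centred on their medians and ran from -0.056 to 0.076. Both did so with the array or the tumour as unit. With arrays left out HES1 in T2 ran from -0.018 to 0.34 and HEYL in T8 from -0.046 to 0.25. HES1 in T3 minus T6 became 0.071 and CCNC against parental cells -0.023 with other probe sets. HES1 against parental cells lost its call with centred arrays (adjusted p = 0.0507), and HEYL gained one there (0.0336) and under quantile normalisation (0.0332). JAG1 between responses passed under quantile normalisation (0.16, adjusted p = 0.00396). Scaling moved the share of called genes that were higher, against parental cells from 60.2% to 47.5% (repeated quantile) or 64.1% (centred), and between responses from 25.1% to 48.2% or 21.2%. Calls over all genes fell from 6314 to 4072 without parental replicate 2, and between responses from 2837 to 1566, 1558, 1377 and 1524 without T3 replicate 1, T6 replicate 1, T6 replicate 2 and T8 replicate 1. Dim probe sets, DLL1 above all, are limited by background.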
